A study of Mus musculus with 6 samples.

Results

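Macrophages take up fatty acids, carry them through the cytosol, store them as triglyceride in lipid droplets and release them again by lipolysis, and the transcripts of 10 genes that serve these steps were measured in unstimulated bone marrow-derived macrophages (BMDMs) with and without a deletion of *Scd2*. The 10 genes were chosen by name for their known roles, from the 40481 genes of the count table, with earlier results of these data known. They are *Lpl* and *Cd36* (fatty acid supply at the cell surface), *Fabp4* and *Fabp5* (cytosolic carriers), *Plin2* and *Plin3* (droplet coats), *Pnpla2* and *Lipe* (lipases), and *Hilpda* and *G0s2* (lipase inhibitors).

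A lipid droplet is a core of triglyceride and cholesteryl ester under a single layer of phospholipid, and the perilipin proteins of its surface govern which lipases reach the core. Triglyceride is cleaved stepwise, first by adipose triglyceride lipase (encoded by *Pnpla2*), then by hormone-sensitive lipase (*Lipe*) and monoglyceride lipase. In macrophages lipid droplets are best known from foam cells of the artery wall and from inflammatory activation, in which stored lipid increases. The enzyme encoded by *Scd2*, stearoyl-CoA desaturase 2, makes monounsaturated fatty acids, which are preferred building blocks of triglyceride.

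The groups were 3 wild-type (WT) samples and 3 samples labelled *Scd2*-KO, in which floxed *Scd2* alleles were deleted by the lysozyme M-Cre transgene, active in the myelomonocytic lineage. The mice of the study were males and females a few months old, and the labels give neither sex, culture day nor animal for a library, nor whether the WT mice carried Cre or floxed alleles. In all samples marrow cells were differentiated into macrophages with CMG-conditioned medium, and poly(A)-selected RNA was sequenced in 1 library per sample. The labels do not say that the samples of a group came from separate animals, so the p-values measure the spread between these samples, which may be technical.

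Each library held between 46285176 and 57629638 counts on genes, with overlapping totals between the genotypes. Levels are given as CPM, the counts of a gene relative to the total of its library, with library sizes scaled by the trimmed mean of M values (TMM) in edgeR, where the factors ranged from 0.979 to 1.02. *Scd2* itself was at 69.1 ± 7.76 CPM in WT and 45.8 ± 11.9 CPM in *Scd2*-KO BMDMs (mean ± SD, n = 3), or 66.2% of the WT mean, with 59.5, 38.0 and 39.8 CPM in *Scd2*-KO replicates 1, 2 and 3. The groups did not overlap, and the difference did not pass the test (log2 fold change −0.59, SE 0.19, FDR 0.1002 by the quasi-likelihood test of edgeR, adjusted by the Benjamini-Hochberg method over 14778 genes), though it passed without *Scd2*-KO replicate 1 (log2 fold change −0.83, FDR 8.9e-05). Counts per gene do not separate the deleted exons of *Scd2* from the rest of its transcript. The paper reported a larger decrease of the *Scd2* transcript, measured relative to housekeeping genes. All 10 macrophage markers examined had counts in all 6 libraries. Their summed level was 38101 to 39266 CPM in WT and 22166 to 22919 CPM in *Scd2*-KO libraries, 5 of them were lower and 1 was higher at an FDR of 0.05, and *Lyz2*, the lysozyme M gene that gives the Cre its name, fell from 22751 to 9029 CPM. All 10 markers of cell division were higher in *Scd2*-KO libraries, with a sum of 159 to 168 CPM against 56.3 to 65.0 CPM. In bulk samples fewer cells of a type and less RNA per cell cannot be told apart, and the part of these shifts in the results given here was not tested.

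Of the 10 genes, 9 had enough counts to be tested, and 3 of them passed an FDR of 0.05, against 17.5% of all tested genes. *Fabp4* and *Plin3* had risen with the deletion and *Lipe* was lower. In each direction the background was 9.65% of tested genes called higher and 7.84% called lower. The 6 other tested genes did not pass, and none of the 9 had a change above 2 on the log2 scale, the size limit of the study. Libraries of the genotypes did not overlap for 4 of the 9 genes, where 34.9% of all tested genes had no overlap. The median log2 fold change of the 9 genes was 0.21, and that of all tested genes was 0.0039.

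**Figure D1:**
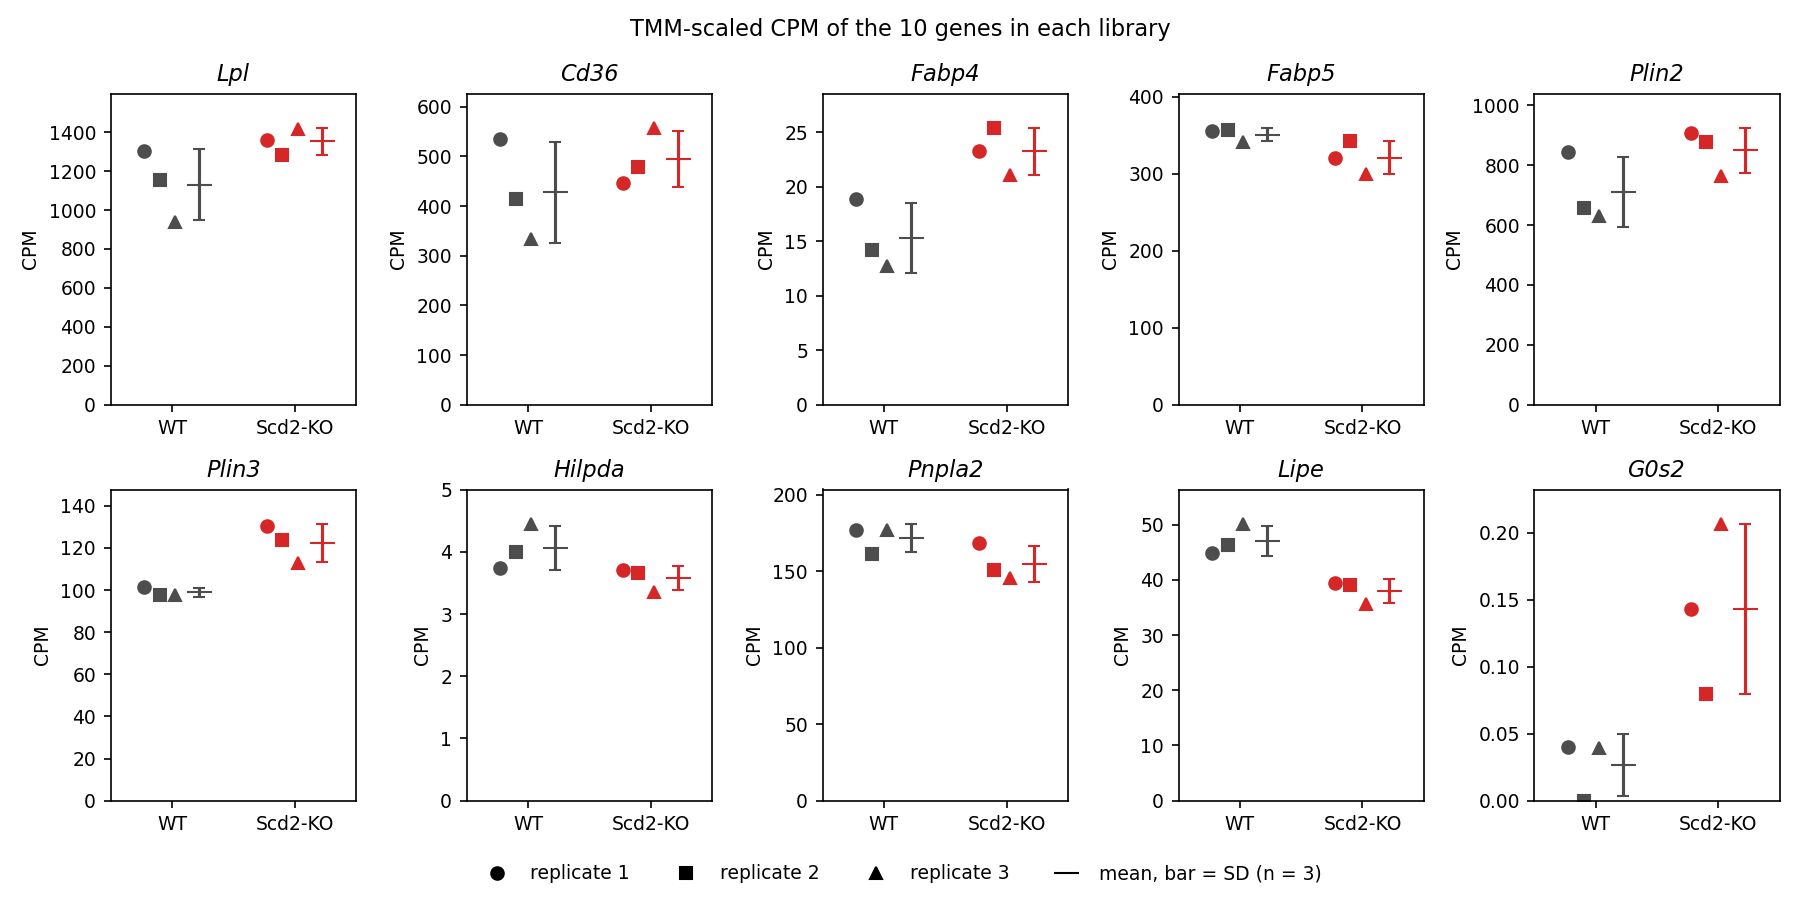
TMM-scaled CPM (vertical axes, linear, from 0) of the 10 genes in WT (grey) and *Scd2*-KO (red) libraries, 1 point per library with the shape giving the replicate and a bar for mean ± SD (n = 3). The groups do not overlap for *Fabp4*, *Plin3*, *Lipe*, *Hilpda* and *G0s2*, and the last of these rests on at most 12 counts in a library.

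*Lpl* encodes lipoprotein lipase, which macrophages secrete and which frees fatty acids from the triglyceride of lipoproteins (ENSMUSG00000015568, GRCm38 chromosome 8, 68880491 to 68907448, plus strand). It was at 1302, 1153 and 938 CPM in WT replicates 1, 2 and 3 and at 1361, 1281 and 1417 CPM in *Scd2*-KO replicates 1, 2 and 3. WT replicate 1 lay above *Scd2*-KO replicate 2, so the groups overlapped, and the WT libraries were spread more widely than the *Scd2*-KO libraries. The mean was 1131 ± 183 CPM in WT and 1353 ± 68.2 CPM in *Scd2*-KO BMDMs (SD, n = 3), and the log2 fold change of 0.26 (SE 0.10) did not pass the test (edgeR FDR 0.103). It was 0.37 without WT replicate 1 and 0.14 without WT replicate 3 (FDR 0.278).

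*Cd36* encodes a scavenger receptor that takes up fatty acids and oxidised lipoproteins (ENSMUSG00000002944, GRCm38 chromosome 5, 17781690 to 17888801, minus strand). Its level was 536, 414 and 333 CPM in WT replicates 1, 2 and 3 and 447, 478 and 557 CPM in *Scd2*-KO replicates 1, 2 and 3. All 3 *Scd2*-KO values lay above WT replicates 2 and 3, and WT replicate 1 lay above *Scd2*-KO replicates 1 and 2. With means of 428 ± 102 and 494 ± 56.6 CPM (SD, n = 3), the log2 fold change was 0.21 (SE 0.18), and the difference did not pass the test (edgeR FDR 0.510). WT replicate 1 was 1.61 times replicate 3, the widest spread within WT libraries among the 9 tested genes.

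The cytosolic carriers differed in the result of the test. *Fabp4*, the fatty acid-binding protein shared by adipocytes and macrophages (ENSMUSG00000062515, GRCm38 chromosome 3, 10204088 to 10208576, minus strand), was at 18.9, 14.2 and 12.8 CPM in WT replicates 1, 2 and 3 and at 23.3, 25.4 and 21.1 CPM in *Scd2*-KO replicates 1, 2 and 3. All *Scd2*-KO libraries lay above all WT libraries. The mean rose from 15.3 ± 3.22 to 23.3 ± 2.14 CPM (SD, n = 3), to 152% of WT, with a log2 fold change of 0.60 (SE 0.13, edgeR FDR 0.00990). This was the largest log2 fold change among the 9 tested genes. The FDR was 0.0508 without WT replicate 2 (log2 fold change 0.55) and 0.0510 without *Scd2*-KO replicate 1 (log2 fold change 0.60), and over 15 alternative settings it ran from 2.7e-10 to 0.0510.

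*Fabp5*, the carrier first described in epidermis and abundant in macrophages (ENSMUSG00000027533, GRCm38 chromosome 3, 10012548 to 10016607, plus strand), was at 355, 356 and 341 CPM in WT replicates 1, 2 and 3 and at 321, 343 and 299 CPM in *Scd2*-KO replicates 1, 2 and 3. *Scd2*-KO replicate 2 lay just above WT replicate 3, and the other *Scd2*-KO libraries lay below all WT libraries. Its log2 fold change of −0.13 (SE 0.064) did not pass the test (edgeR FDR 0.194). Reads could in principle be shared with the *Fabp5* pseudogene *Fabp5l2*, which had 22 to 30 counts per library.

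The ratio of *Fabp4* to *Fabp5* counts was 0.0532, 0.0399 and 0.0374 in WT replicates 1, 2 and 3 and 0.0725, 0.0740 and 0.0706 in *Scd2*-KO replicates 1, 2 and 3. The ratio was higher in all *Scd2*-KO libraries than in any WT library, and the *Scd2*-KO libraries were close to each other. Its log2 value was −4.54 ± 0.27 in WT and −3.79 ± 0.035 in *Scd2*-KO BMDMs (SD, n = 3), a difference of 0.75 with p = 0.1 in a two-sided exact permutation test, the smallest p that 3 against 3 libraries allow, and 0.3 after adjustment over the 3 ratios tested. With these libraries the permutation test could therefore not reach 0.05 for any ratio, whatever its values. Among 11809 genes with a mean of at least 1 CPM, the levels of *Efr3b* (Pearson r = 0.994), *Procr* (0.994) and *Tulp4* (0.993) followed *Fabp4* most closely over the 6 libraries. These correlations are a description, because the libraries share the difference in genotype. *Procr*, the endothelial protein C receptor, was at 2.79 CPM in WT and 5.76 CPM in *Scd2*-KO BMDMs.

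The droplet coat genes both had higher means in *Scd2*-KO BMDMs. *Plin2*, the perilipin bound to droplets in most cells and degraded when it is not bound (ENSMUSG00000028494, GRCm38 chromosome 4, 86648386 to 86670060, minus strand), was at 844, 656 and 630 CPM in WT replicates 1, 2 and 3 and at 906, 877 and 764 CPM in *Scd2*-KO replicates 1, 2 and 3. WT replicates 2 and 3 lay below all *Scd2*-KO libraries, while WT replicate 1 lay above *Scd2*-KO replicate 3. The mean was 710 ± 117 CPM in WT and 849 ± 74.9 CPM in *Scd2*-KO BMDMs (SD, n = 3), and the log2 fold change of 0.26 (SE 0.11) did not pass the test (edgeR FDR 0.132).

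*Plin3*, which is cytosolic and moves onto newly formed droplets (ENSMUSG00000024197, GRCm38 chromosome 17, 56277476 to 56292873, minus strand), was at 101, 97.4 and 97.7 CPM in WT replicates 1, 2 and 3 and at 130, 124 and 113 CPM in *Scd2*-KO replicates 1, 2 and 3. The WT libraries were nearly equal, and all *Scd2*-KO libraries lay above them. *Plin3* rose from 98.9 ± 2.28 to 122 ± 8.95 CPM (SD, n = 3), which is 0.31 on the log2 scale (SE 0.064, edgeR FDR 0.00417). It passed the test in all 15 alternative settings, with log2 fold changes from 0.26 to 0.36 and an FDR from 1.2e-04 to 0.0351.

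*Plin2* and *Plin3* had log2 fold changes of similar size, and they differed in the spread of the WT libraries. The ratio of their counts was 8.31, 6.73 and 6.45 in WT replicates 1, 2 and 3 and 6.95, 7.08 and 6.78 in *Scd2*-KO replicates 1, 2 and 3, so the WT libraries enclosed the *Scd2*-KO libraries. The difference of the log2 ratio was −0.038 (exact permutation test, two-sided, p = 1), and without WT replicate 1 it was 0.073.

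Among the lipases, *Pnpla2* (ENSMUSG00000025509, GRCm38 chromosome 7, 141455198 to 141460743, plus strand), the enzyme of the first step, was at 177, 161 and 177 CPM in WT replicates 1, 2 and 3 and at 168, 151 and 146 CPM in *Scd2*-KO replicates 1, 2 and 3. *Scd2*-KO replicate 1 lay within the WT range and the other *Scd2*-KO libraries lay below it. The mean was 172 ± 9.13 CPM in WT and 155 ± 11.7 CPM in *Scd2*-KO BMDMs (SD, n = 3), and the log2 fold change of −0.15 (SE 0.067) did not pass the test (edgeR FDR 0.155). It passed without *Scd2*-KO replicate 1 (log2 fold change −0.21, FDR 0.0416), and over the 15 alternative settings the FDR ran from 0.0416 to 0.401.

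*Lipe*, which cleaves diglyceride and cholesteryl ester (ENSMUSG00000003123, GRCm38 chromosome 7, 25379527 to 25398710, minus strand), was at 44.8, 46.4 and 50.1 CPM in WT replicates 1, 2 and 3 and at 39.5, 39.0 and 35.5 CPM in *Scd2*-KO replicates 1, 2 and 3. All *Scd2*-KO libraries lay below all WT libraries. *Lipe* fell from 47.1 ± 2.71 to 38.0 ± 2.15 CPM (SD, n = 3), to 80.7% of WT, with a log2 fold change of −0.31 (SE 0.069, edgeR FDR 0.00656). It passed the test in all 15 alternative settings, with log2 fold changes from −0.34 to −0.26. The antisense gene *4732471J01Rik* overlaps it and had 1 to 16 counts per library. Without known strand its reads cannot be told apart from those of *Lipe*.

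The ratio of *Pnpla2* to *Lipe* counts was 3.95, 3.47 and 3.53 in WT replicates 1, 2 and 3 and 4.26, 3.87 and 4.10 in *Scd2*-KO replicates 1, 2 and 3. WT replicate 1 lay above *Scd2*-KO replicate 2, so the groups overlapped. The log2 ratio differed by 0.16 (exact permutation test, two-sided, p = 0.2, and 0.3 after adjustment over the 3 ratios).

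The inhibitors of the first lipase had the lowest levels of the 10 genes per kilobase of the longest principal transcript. *Hilpda*, a hypoxia-induced droplet protein that inhibits the *Pnpla2* product (ENSMUSG00000043421, GRCm38 chromosome 6, 29272488 to 29275446, plus strand), was at 3.75, 3.99 and 4.45 CPM in WT replicates 1, 2 and 3 and at 3.71, 3.66 and 3.36 CPM in *Scd2*-KO replicates 1, 2 and 3. The *Scd2*-KO libraries lay below the WT libraries, and the nearest values, those of replicate 1 in each group, were almost equal. The log2 fold change was −0.18 (SE 0.14), and the difference did not pass the test (edgeR FDR 0.399).

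*G0s2*, an inhibitor of the same lipase first found in lymphocytes entering the cell cycle (ENSMUSG00000009633, GRCm38 chromosome 1, 193272161 to 193273217, minus strand), had 2, 0 and 2 counts in WT replicates 1, 2 and 3 and 8, 4 and 12 counts in *Scd2*-KO replicates 1, 2 and 3. It was below the filter on low counts and was not part of the test of the other genes. All *Scd2*-KO libraries had more counts than any WT library. Summed over libraries, 24 counts in *Scd2*-KO against 4 in WT BMDMs gave a ratio of CPM of 5.36 (exact 95% interval 1.84 to 21.2, which covers counting error only). All 6 counts are even, and with halved counts the interval ran from 1.19 to 49.3. An exact permutation test on the CPM of the libraries gave p = 0.1 (two-sided), the smallest it allows. Fitted with edgeR without a filter on low counts, *G0s2* had a log2 fold change of 2.31 (SE 1.09) and did not pass the test (FDR 0.187). The overlapping gene *Lamb3* on the other strand had at most 2 counts in a library.

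**Figure D2:**
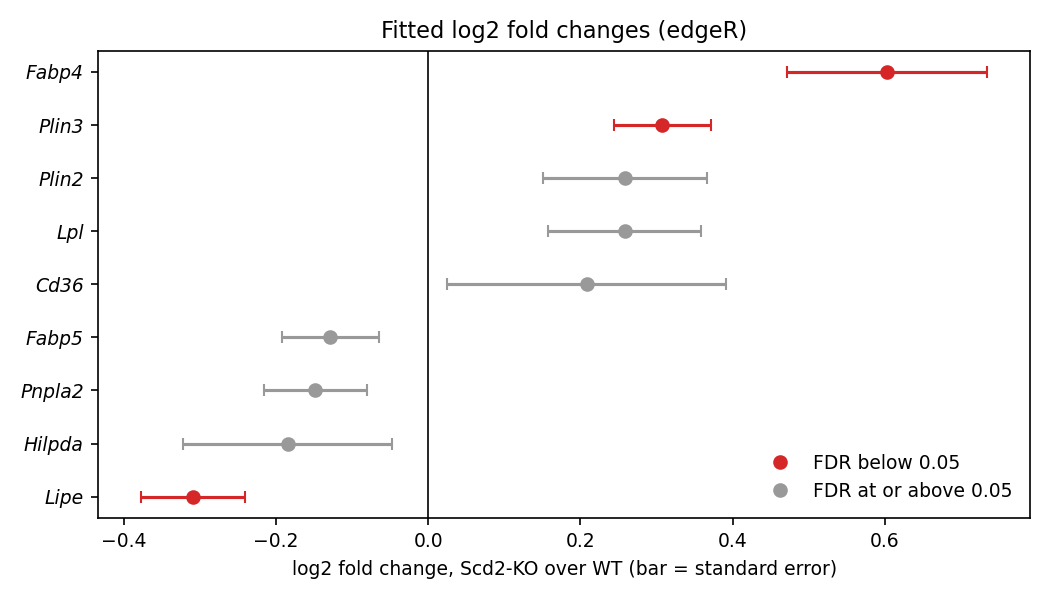
Log2 fold change of *Scd2*-KO over WT BMDMs for the 9 tested genes (horizontal axis), with a bar for the standard error of edgeR's fit (n = 3 per genotype) and red for an FDR below 0.05. *Fabp4* (0.60) and *Plin3* (0.31) lie to the right of 0 and *Lipe* (−0.31) to the left, each in red.

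The same WT libraries were highest and lowest for several genes. Replicate 1 was the highest and replicate 3 the lowest for *Plin2*, *Fabp4*, *Lpl* and *Cd36*, with ratios of highest to lowest of 1.34, 1.48, 1.39 and 1.61. For *Lipe* and *Hilpda* replicate 3 was the highest and replicate 1 the lowest, with ratios of 1.12 and 1.19. In *Scd2*-KO libraries the same ratios were 1.19 for *Plin2*, 1.20 for *Fabp4*, 1.11 for *Lpl* and 1.25 for *Cd36*.

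With WT replicate 1 left out, 6 of the 9 genes passed the test, against 15.3% of 15177 genes tested then. *Plin2* had a log2 fold change of 0.40 (edgeR FDR 0.00237), *Lpl* of 0.37 (FDR 0.00777) and *Cd36* of 0.40 (FDR 0.0228), and *Fabp4*, *Plin3* and *Lipe* passed as before. Over 15 alternative settings the FDR of *Plin2* ran from 0.00144 to 0.349, that of *Lpl* from 0.00137 to 0.303 and that of *Cd36* from 0.0228 to 0.815. With all 6 libraries *Plin2*, *Lpl* and *Cd36* did not pass. Without WT replicate 3 their log2 fold changes were smaller, at 0.18 for *Plin2* (edgeR FDR 0.301), 0.14 for *Lpl* (FDR 0.278) and 0.056 for *Cd36* (FDR 0.815). *Plin3* and *Lipe* passed whichever library was left out.

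**Figure D3:**
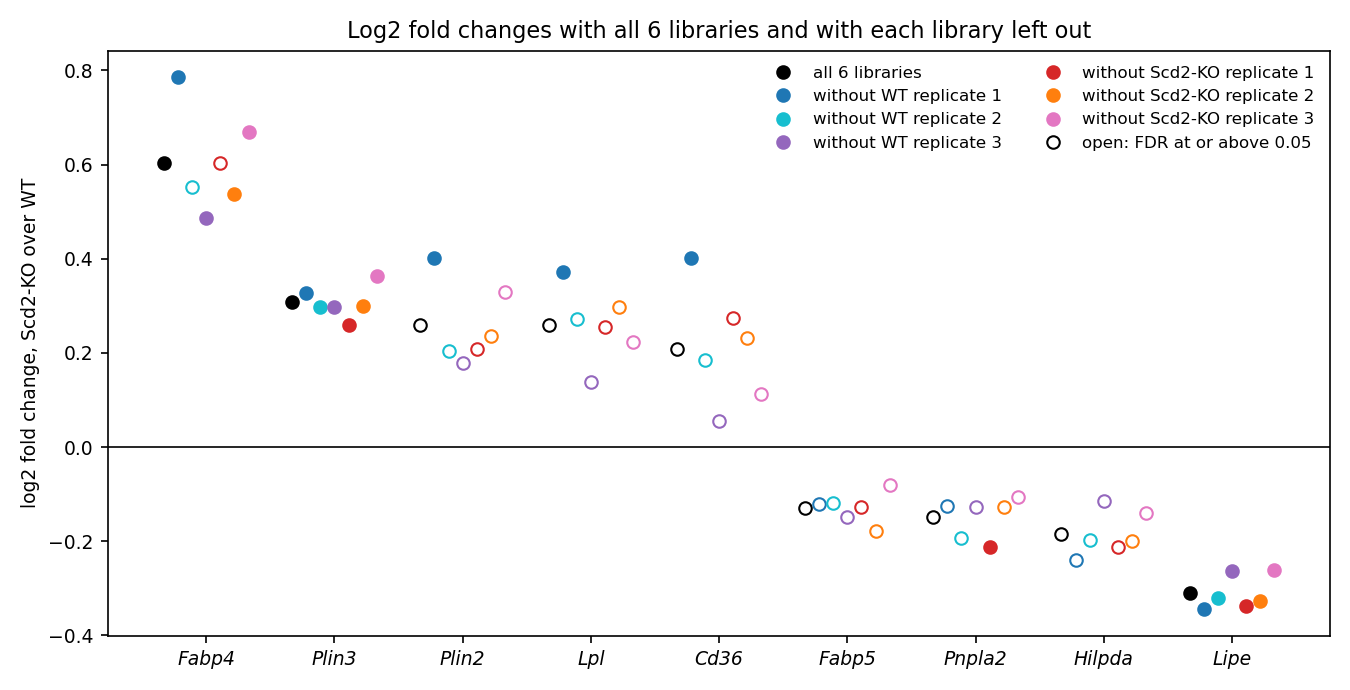
Log2 fold change of *Scd2*-KO over WT BMDMs (vertical axis) for each tested gene with all 6 libraries (black) and with each library left out in turn (colours), filled where the edgeR FDR is below 0.05 and open otherwise. Without WT replicate 1 (dark blue) *Plin2*, *Lpl* and *Cd36* move to between 0.37 and 0.40 and become filled, and *Plin3* and *Lipe* are filled throughout.

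Levels of different genes were compared per kilobase of the longest principal transcript of each gene. In WT BMDMs the mean was 376 CPM per kilobase for *Plin2*, 356 for *Fabp5*, 275 for *Lpl*, 126 for *Cd36* and 95.4 for *Pnpla2*. Below these came *Plin3* at 27.1, *Fabp4* at 17.1, *Lipe* at 13.0, *Hilpda* at 4.14 and *G0s2* at 0.0305 CPM per kilobase. The ranges of *Plin2* and *Fabp5* overlapped, as did those of *Cd36* and *Pnpla2*, and the other neighbours in this order did not overlap. In *Scd2*-KO BMDMs *Lpl* (329 CPM per kilobase) stood above *Fabp5* (325), with overlapping ranges, and the order was otherwise the same. Per kilobase *Fabp5* thus exceeded *Fabp4*, *Plin2* exceeded *Plin3* and *Pnpla2* exceeded *Lipe* in both genotypes. The order depends on the transcript chosen, since with the length of all annotated exons *Cd36* came second, *Lpl* came after it and *Fabp4* fell below *Lipe* and *Hilpda*.

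**Figure D4:**
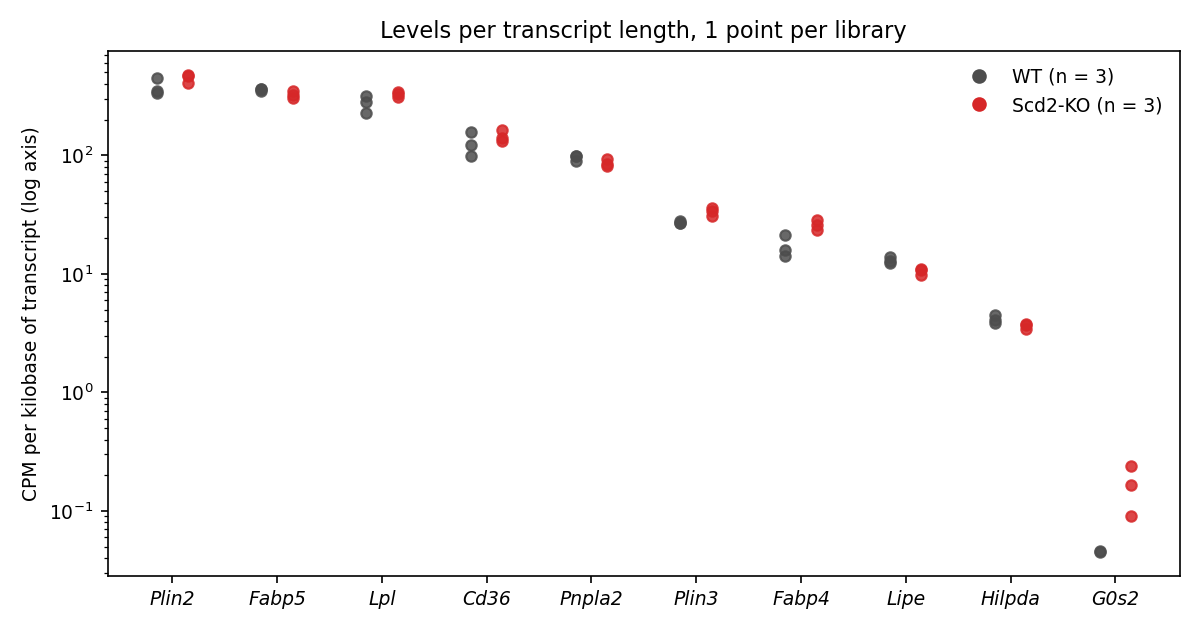
CPM per kilobase of the longest principal transcript (vertical axis, log scale) of the 10 genes in WT (grey) and *Scd2*-KO (red) libraries, 1 point per library (n = 3). *Plin2*, *Fabp5* and *Lpl* lie highest, with WT means from 275 to 376, and the WT library with 0 counts of *G0s2* cannot be drawn on the log axis.

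Promoter windows of 300 bases around the annotated start, from RefSeq on GRCm38.p6, were found for 7 of the 10 genes, in 9 windows, and not for *Fabp4*, *Fabp5* and *Lpl*. Shown are those of *Plin3* and *Lipe*, which passed the test, and those of *Plin2* and *Hilpda*, which are the other genes with a window that holds ACGTG. *Lipe* and *Hilpda* had 2 windows each, and only the window with ACGTG is shown. These letters are a form of the core of the hypoxia response element, and other forms were not searched. Capitals mark ACGTG and its longer form, the E-box CACGTG, as well as matches of CCAAT on either strand, and the windows run 5′ to 3′ on the gene's own strand.

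*Plin3*, chr17:56290462-56290761, minus strand: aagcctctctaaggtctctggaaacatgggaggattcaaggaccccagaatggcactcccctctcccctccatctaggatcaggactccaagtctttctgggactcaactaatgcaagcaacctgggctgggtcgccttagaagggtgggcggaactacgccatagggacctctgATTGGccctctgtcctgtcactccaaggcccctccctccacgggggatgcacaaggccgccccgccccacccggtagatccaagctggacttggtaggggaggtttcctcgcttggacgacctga

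*Plin2*, chr4:86670010-86670309, minus strand: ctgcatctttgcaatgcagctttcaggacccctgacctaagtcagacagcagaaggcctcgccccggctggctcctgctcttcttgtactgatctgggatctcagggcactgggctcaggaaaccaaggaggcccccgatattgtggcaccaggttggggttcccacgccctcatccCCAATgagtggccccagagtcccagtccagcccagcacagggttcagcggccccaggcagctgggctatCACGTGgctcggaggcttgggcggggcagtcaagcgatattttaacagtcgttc

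*Lipe*, chr7:25395938-25396237, minus strand: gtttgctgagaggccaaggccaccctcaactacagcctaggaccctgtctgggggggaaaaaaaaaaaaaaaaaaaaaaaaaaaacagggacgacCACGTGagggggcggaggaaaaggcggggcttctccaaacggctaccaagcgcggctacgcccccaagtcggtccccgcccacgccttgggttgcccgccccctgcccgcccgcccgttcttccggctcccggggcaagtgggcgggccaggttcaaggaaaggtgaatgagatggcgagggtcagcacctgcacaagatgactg

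*Hilpda*, chr6:29272376-29272675, plus strand: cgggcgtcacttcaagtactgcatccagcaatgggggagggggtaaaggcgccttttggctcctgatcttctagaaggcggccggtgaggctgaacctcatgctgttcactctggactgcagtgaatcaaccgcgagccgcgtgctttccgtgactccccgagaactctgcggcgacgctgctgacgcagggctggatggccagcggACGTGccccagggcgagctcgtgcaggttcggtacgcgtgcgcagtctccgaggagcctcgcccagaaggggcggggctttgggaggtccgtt

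Letters were searched on both strands. ACGTG was in 3 of the 9 windows, 1 each of *Plin2*, *Lipe* and *Hilpda*, and in 19.6% of all 32851 windows. CACGTG was in 2 of the 9, 1 each of *Plin2* and *Lipe*, and in 7.15% of all windows. The other windows of *Lipe* and *Hilpda* held neither. CCAAT was in 3 of the 9 windows, those of *Plin2*, *Plin3* and *Cd36*, and in 37.4% of all windows. The element bound by PPAR with its partner RXR, searched as a direct repeat of AGGTCA with 1 base of any kind between the copies, was in none of the 9 windows and in 0.0396% of all windows, and TATAAA was in none of the 9 and in 13.6%. A match is a description of these letters only. *Plin3* and *Lipe*, which moved in opposite directions, shared none of the letter strings searched. CACGTG was in 1 window of *Lipe*, which fell, and in that of *Plin2*, which did not pass the test.

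Around the 10 genes, 7 lists of other genes of lipid handling held 71 tested genes, and at an FDR of 0.05 the *Scd2*-KO level was higher for 7 and lower for 11 of them, with a median log2 fold change of −0.0057. All 18 kept their direction in the alternative settings, and 10 of them passed whichever library was left out. Of all tested genes 9.65% were called higher and 7.84% lower, and the list of transcription factors had 1 of 13 tested genes higher and 5 lower.

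For fatty acid uptake and activation, 1 of 10 tested genes was higher and 1 lower, and the median log2 fold change was 0.048. *Acsl5*, which activates fatty acids to acyl-CoA, fell from 93.2 ± 8.68 to 75.8 ± 3.48 CPM (SD, n = 3, log2 fold change −0.30, edgeR FDR 0.0110), and it did not pass without WT replicate 2 or *Scd2*-KO replicate 2, where the FDR reached 0.0866. *Got2*, a mitochondrial aminotransferase also described as a fatty acid-binding protein of the plasma membrane, rose from 89.7 ± 6.57 to 103 ± 3.93 CPM (log2 fold change 0.20, FDR 0.0479). It lost the call without any one of 4 libraries, WT replicates 2 and 3 and *Scd2*-KO replicates 1 and 2, with an FDR of up to 0.223. *Acsl1* had a log2 fold change of −0.02 (FDR 0.904).

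Of the partners of lipoprotein lipase and the lipoprotein receptors, 1 of 11 tested genes was higher and 1 lower. *Apoc2*, the cofactor that activates lipoprotein lipase, fell from 44.5 ± 3.33 to 32.8 ± 3.13 CPM (SD, n = 3, log2 fold change −0.44, SE 0.080, edgeR FDR 0.00180), and it passed whichever library was left out. *Lipg*, endothelial lipase, had 6, 8 and 24 counts in WT and 76, 33 and 48 counts in *Scd2*-KO replicates 1, 2 and 3, a log2 fold change of 1.87 (SE 0.46, edgeR FDR 0.0125). All *Scd2*-KO counts of *Lipg* lay above all WT counts, and without WT replicate 2 or *Scd2*-KO replicate 1 it did not pass (FDR up to 0.0648). *Lmf1*, which matures the lipase in the endoplasmic reticulum, had a log2 fold change of 0.02 (FDR 0.897) and *Angptl4*, which inactivates it, of 0.17 (FDR 0.414). *Gpihbp1*, its anchor on capillary endothelium, had 1 count in all 6 libraries together.

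No other fatty acid-binding protein of 4 tested passed the test. Among genes of the droplet coat and of droplet formation, none of 12 tested was higher and 1 was lower. That gene was *Aup1*, a droplet protein of ubiquitination, at 137 ± 11.7 CPM in WT and 116 ± 3.03 CPM in *Scd2*-KO BMDMs (SD, n = 3, log2 fold change −0.24, edgeR FDR 0.0236), and without WT replicate 3, *Scd2*-KO replicate 2 or *Scd2*-KO replicate 3 its FDR rose to as much as 0.120. The remaining perilipins were at low levels. *Plin4* was at 0.277 and 0.243 CPM in WT and *Scd2*-KO BMDMs, *Plin5* had 2 to 8 counts per library, and *Plin1*, the perilipin of adipocytes, had 4 counts in WT replicate 1 and 0 in the other libraries.

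For the synthesis of triglyceride and cholesteryl ester, 1 of 11 tested genes was higher and 2 were lower, and the median log2 fold change was −0.15. *Lpin2*, a phosphatidate phosphatase that makes diglyceride, fell from 198 ± 13.2 to 137 ± 8.92 CPM (SD, n = 3, log2 fold change −0.53, SE 0.068, edgeR FDR 1.11e-04). *Agpat2*, which makes phosphatidic acid one step earlier, fell from 50.6 ± 3.31 to 37.9 ± 1.48 CPM (log2 fold change −0.42, FDR 7.1e-04). *Soat1*, which esterifies cholesterol for storage, rose from 348 ± 2.73 to 418 ± 20.6 CPM (log2 fold change 0.26, FDR 0.00775). These 3 genes passed whichever library was left out. Of the enzymes of the last step to triglyceride, *Dgat1* had a log2 fold change of −0.0043 (FDR 0.981) and *Dgat2*, at means of 0.789 and 0.559 CPM in WT and *Scd2*-KO BMDMs, of −0.50 (FDR 0.496).

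Of the genes of lipolysis and lipophagy, 3 of 10 tested were higher and 1 was lower. *Gk*, glycerol kinase, which recycles the glycerol that lipolysis frees, rose from 12.8 ± 0.901 to 17.5 ± 0.278 CPM (SD, n = 3, log2 fold change 0.45, SE 0.082, edgeR FDR 0.00191) and passed whichever library was left out. *Mgll*, the monoglyceride lipase of the last step, was at 4.51 ± 0.629 CPM in WT and 7.46 ± 2.12 CPM in *Scd2*-KO BMDMs (log2 fold change 0.73, FDR 0.0240). It did not pass without WT replicate 1 or 3 or *Scd2*-KO replicate 1 or 2, where the FDR reached 0.0825. *Abhd12*, a serine hydrolase of monoglyceride and lysophospholipid, fell from 500.2 ± 4.76 to 433 ± 9.47 CPM (log2 fold change −0.21, FDR 0.0225), but did not pass without WT replicate 2 or *Scd2*-KO replicate 2 or 3 (FDR up to 0.119).

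*Nceh1*, a neutral cholesteryl ester hydrolase, was named after its values were seen as the remaining call of that list, with a log2 fold change of 0.20 (edgeR FDR 0.0347) that was lost without any one of 4 libraries, WT replicates 2 and 3 and *Scd2*-KO replicates 2 and 3 (FDR up to 0.185). *Abhd5*, the coactivator of the first lipase, was at 20.3 ± 1.09 and 22.9 ± 0.606 CPM (SD, n = 3) without overlap between the groups and did not pass the test (log2 fold change 0.17, FDR 0.126). *Lipa*, the acid lipase of the lysosome, was at 1113 ± 59.2 CPM in WT and 1209 ± 66.3 CPM in *Scd2*-KO BMDMs (log2 fold change 0.12, FDR 0.263). Along the lipolytic steps the first lipase and its coactivator thus had no called change, the lipase of the next step was lower, and that of the last step was higher at a low level and with a call that depends on single libraries.

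Among transcription factors of lipid handling, *Rxra*, the shared partner of PPAR and LXR receptors, fell from 114 ± 1.39 to 69.4 ± 2.52 CPM (SD, n = 3, log2 fold change −0.72, SE 0.057, edgeR FDR 1.94e-06). *Cebpa* fell from 164 ± 9.44 to 113 ± 7.49 CPM (log2 fold change −0.54, FDR 8.8e-05) and *Cebpb* from 194 ± 16.0 to 143 ± 8.74 CPM (log2 fold change −0.43, FDR 7.8e-04); both encode C/EBP factors of myeloid and fat cell differentiation. *Hif1a*, the hypoxia-inducible factor whose known targets include *Hilpda*, fell from 115 ± 6.84 to 81.7 ± 9.94 CPM (log2 fold change −0.49, FDR 0.00114). These 4 genes passed whichever library was left out, as did *Klf4*, which rose (log2 fold change 0.44, FDR 0.00206). *Nr1h3*, which encodes LXR alpha, had a log2 fold change of −0.59 (FDR 0.0112) that was lost without *Scd2*-KO replicate 3 (−0.44, FDR 0.0930). *Klf4* and *Nr1h3* were named after their values were seen. *Pparg*, whose product activates *Fabp4*, *Cd36*, *Lpl* and *Plin2* in other settings, was at 31.8 ± 2.32 and 34.0 ± 2.36 CPM with overlapping libraries (log2 fold change 0.10, FDR 0.430).

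**Figure D5:**
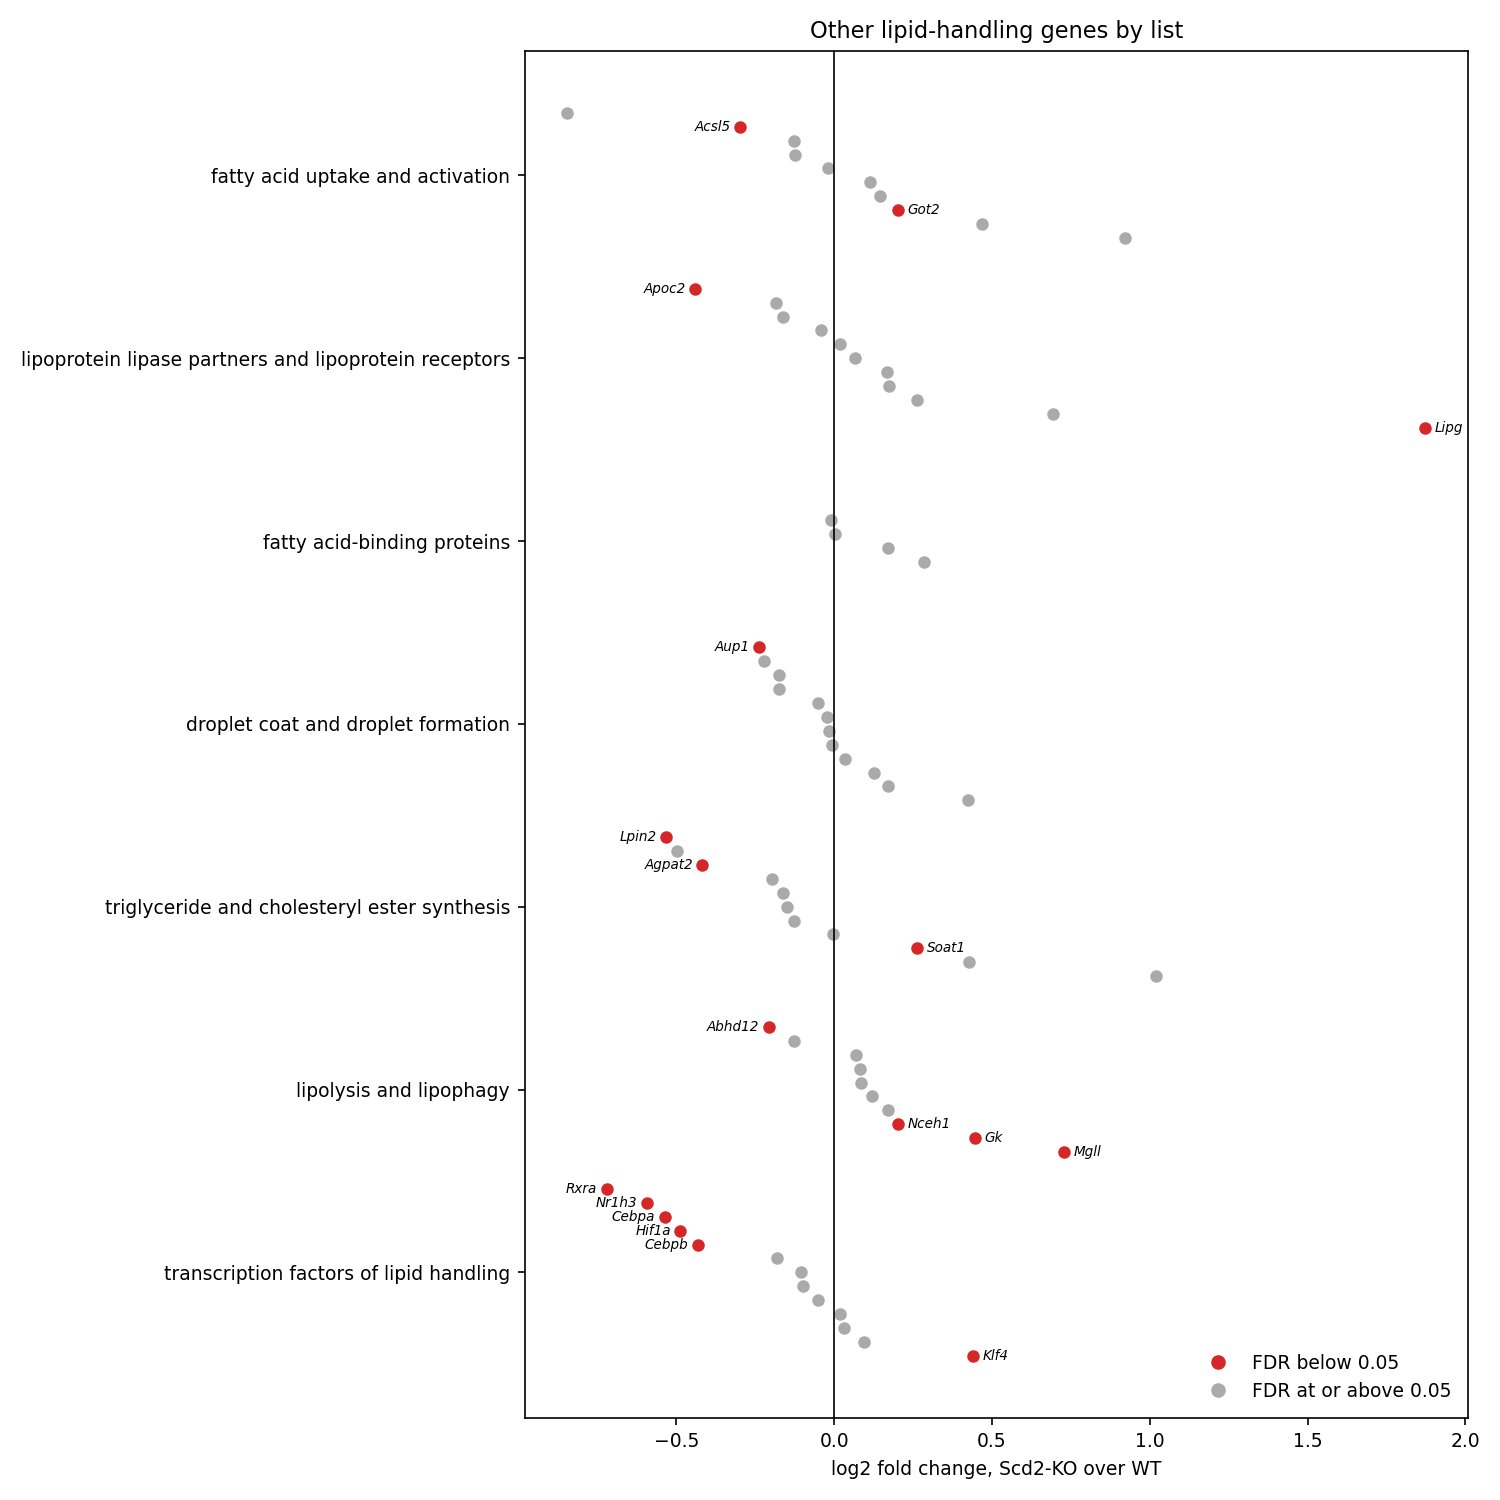
Log2 fold change of *Scd2*-KO over WT BMDMs (horizontal axis) of the 71 tested genes in 7 lists (vertical axis; points within a list are spread only to keep them apart), 1 point per gene, red and named where the edgeR FDR is below 0.05. The transcription factor list has 5 red points on the left and *Klf4* on the right, and the list of other fatty acid-binding proteins has none.

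*Fabp4*, *Lipe*, *Lpl*, *Cd36* and *Pnpla2* are also abundant in adipocytes, so markers of other cells were examined. Of 10 adipocyte markers, 2 were tested and none passed, *Adipoq* had 0 counts in all 6 libraries, *Plin1* had at most 4 counts and *Lep* and *Cidec* had at most 2 counts in a library. Without *Adipor2*, which macrophages express, the other 9 adipocyte markers summed to 0.256 to 0.774 CPM. Neutrophil markers summed to 11.0 to 11.9 CPM in WT and 25.8 to 33.5 CPM in *Scd2*-KO libraries, and 5 of 7 tested were higher. Of 4 tested B cell markers 2 were higher, and all 8 summed to 54.2 to 120 CPM in WT and 83.7 to 116 CPM in *Scd2*-KO libraries. Most of this sum was *Ighm*, at 51.9 to 116 and 77.3 to 110 CPM, which was not called. The 2 higher markers were *Cd79a* and *Cd79b*, and *Cd79b* was at 2.50 CPM in WT and 5.01 CPM in *Scd2*-KO BMDMs. Dendritic cell markers summed to 2.01 to 3.27 and 2.92 to 3.87 CPM, with 2 of 7 tested higher. T and NK cell markers summed to 27.4 to 43.9 and 34.4 to 37.3 CPM, with 1 tested, which was not called, and *Ncr1* at 0 counts. The tested gene, *Cd4*, made up nearly all of this sum, at 27.2 to 43.8 and 34.1 to 37.0 CPM. *Cd3e* had at most 4 counts in a library. Markers of stroma and endothelium summed to 11.1 to 12.5 and 11.4 to 12.7 CPM with 1 of 6 tested lower. Erythroid and megakaryocyte markers summed to 53.0 to 62.2 CPM in WT and 42.5 to 44.0 CPM in *Scd2*-KO libraries, with 1 of 4 tested lower. That gene, *Pf4*, made up most of the sum, with means of 54.3 CPM in WT and 40.8 CPM in *Scd2*-KO BMDMs. Among all tested genes 9.65% were called higher and 7.84% lower. The part of neutrophil, B cell, dendritic and megakaryocyte transcripts in the values of the 10 genes was not tested.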

How the data were processed

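RNA of unstimulated BMDMs was sequenced in 3 WT and 3 *Scd2*-KO samples, grouped by the genotype in their labels. The authors used STAR with the Ensembl primary assembly of the mouse (GRCm38) for alignment, and the deposited values are raw, unnormalized counts per gene. Sources used here do not name the counter, its strand setting or any read filter. A deposited table of the authors' own comparison (edgeR and limma) holds log2 fold changes, confidence limits, p-values and log2 CPM per library, and it was not used.

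Removal of 276 repeated entries, none with differing counts, left 40481 genes. Among counts from 1 to 20, even values made up 60.9% to 64.9% in each library, for a reason that the sources used here do not give. Counts were compared with edgeR 4.0.16 (filterByExpr, TMM, robust glmQLFit, glmQLFTest) and Benjamini-Hochberg adjustment over all 14778 tested genes, in R 4.3.3. A gene was called at an FDR below 0.05. The standard error was derived from the log2 fold change and its quasi-likelihood F statistic. Ratios were compared with exact permutation tests, and the interval of *G0s2* is an exact interval of the counts. The fit was tested on simulated data. Replicates of a genotype differed by more than counting noise, with a chi-square per gene of 10.4 to 31.9, and each was counted as 1 sample.

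Named genes are the 10 genes, *Scd2*, in each list up to 3 called genes of smallest p, called list genes with a log2 change above 1, a fixed set of direct partners, and the 3 genes most like the called gene with the largest change, by log2 CPM with a pseudocount of 0.5. The 10 genes and the lists were chosen with earlier results of these data known. Coordinates are from GENCODE on GRCm38. Alternatives were other normalization factors, filters and thresholds, DESeq2 1.42.0, limma-voom (limma 3.58.1, also with quality weights), the replicate number as a block, and leaving out each library. Halved counts were an alternative added after seeing the data.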

Additional observations from a re-analysis of the deposited data

How the results depend on the processing

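*Plin3* and *Lipe* passed in all 15 alternative settings, *Fabp4* in 13, and *Fabp5* and *Hilpda* in none, and none of the 9 tested genes changed direction. With quality weights in limma-voom 4507 of all genes and 5 of the 9 passed (*Plin2* 0.35, *Lpl* 0.22 on the log2 scale), at a background of 30.5%. Without a filter on low counts 5 passed (*Plin2* 0.26, *Lpl* 0.26), at a background of 11.8%. With DESeq2 *Lpl* passed (0.25, adjusted p = 0.0495). With a log2 change above 2 required as well, 98 of all genes and 0 of the 9 passed. *Scd2* passed with limma-voom (−0.62).

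Leaving out each library in turn, 2 to 6 of the 9 were called. There were 2 without WT replicate 2, among 15161 tested genes, and 6 without WT replicate 1, at a background of 15.3%. Over all genes, leaving out each library gave 1440 to 2567 calls, with the fewest without *Scd2*-KO replicate 2 (1440) and WT replicate 2 (1490). The log2 fold changes then ran from 0.18 to 0.40 for *Plin2*, 0.49 to 0.79 for *Fabp4*, 0.14 to 0.37 for *Lpl*, −0.21 to −0.11 for *Pnpla2*, 0.056 to 0.40 for *Cd36* and −0.83 to −0.48 for *Scd2*, and the difference of the *Plin2* to *Plin3* log2 ratio from −0.11 to 0.073, reversed without WT replicate 1. Called genes of the 7 lists numbered 12 to 21. The cause of these shifts was not tested.

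With the replicate number as a replicate block 2974 genes and 4 of the 9 passed, *Plin2* included (0.27, FDR 0.00983), at a background of 20.1%. The labels do not say whether the numbers pair the samples. The deviations of same-numbered libraries correlated at 0.10, −0.054 and 0.083, and those of differently numbered libraries at −0.14 to 0.070. With 3 libraries per genotype these values cannot decide whether the samples were paired. Depth limits *G0s2*, *Plin1*, *Plin5* and *Gpihbp1*, whose counts were below the filter, and without a filter *G0s2* did not pass (log2 fold change 2.31, FDR 0.187).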
